A study of Mus musculus with 17 samples.

Results

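The transcripts of 10 neuropeptide genes (Ucn, Cartpt, Cck, Nts, Tac1, Penk, Pdyn, Sst, Npy and Vip) were followed in mouse brain, out of 20328 genes listed by RNA-seq. They were chosen by symbol with results of these libraries known, so their RNA-seq values are given as a description and without p-values. RNA-seq covered wild-type ICR mice in 3 groups: sham (n = 2 libraries), the 6-OHDA-induced PD model (n = 1) and 6-OHDA with NDST3 treatment (n = 2, called NDST3-treated here). By the study's methods, the mice were female and 8 weeks old at surgery. 6-OHDA, a toxin taken up by catecholamine neurons, was injected on one side into the substantia nigra at 10 µg/µl. The NDST3-treated mice received 2 µl of an AAV9 vector carrying the human NDST3 gene at the same site 5 days later, and the lesioned group received saline. The CMV promoter of the vector is not restricted to a cell type, no empty-vector RNA-seq library is compared here, and the labels give the tissue only as brain. H3K27ac CUT&RUN and ATAC-seq tables of the same 3 treatments were also examined, as was a scRNA-seq table of 6-OHDA and NDST3-treated libraries. The sham scRNA-seq library was not analysed here. The sources used here do not state whether libraries of a group came from separate mice, so the spread between them may be technical.

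Neuropeptides are made as precursor proteins, packed into dense-core vesicles, cut and modified there by convertases and amidating enzymes, and released to act on G protein-coupled receptors. Many neurons release a peptide together with a fast transmitter, so a peptide marks a subset of neurons. Urocortin (Ucn) and CART (Cartpt) share neurons of the Edinger-Westphal nucleus in the midbrain. Cholecystokinin (Cck) and neurotensin (Nts) occur in part of the dopaminergic neurons, while tachykinins (Tac1) and dynorphins (Pdyn) fill striatal outputs to the nigra.

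By RefSeq on GRCm38, the genes not shown with a promoter lie at chr9:121489824-121495694 (Cck), chr10:102481756-102490418 (Nts), chr4:4133536-4138815 (Penk), chr2:129686549-129699938 (Pdyn), chr6:49822710-49829507 (Npy) and chr10:5639193-5647617 (Vip).

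Several of these genes are known targets of cAMP signalling through a cAMP response element (CRE, TGACGTCA), so the bases in front of the genes were read. RefSeq promoter windows of GRCm38.p6 were matched for 9 of the 10 genes, and the 250 bases upstream of the start were searched on both strands. The full CRE stood in 3 of the 9 genes (Ucn, Cartpt and Sst), against 1.62% of 27025 windows. Positions are counted from the start, with its upstream neighbour as -1, and give the first base of the match. The CRE began at -44 in Ucn, at -112 in Cartpt and at -48 in Sst. The shorter CRE core TGACG, which lies within every full CRE, was also found in Cck (-47), Nts (-166), Tac1 (-197 and -43) and Vip (-79), which makes 7 of the 9 genes against 17.9% of windows. Neither form was found in Npy or in either of the 2 windows of Pdyn. The 3 windows with a full CRE and that of Tac1, the gene with 2 separate cores, are shown 5′ to 3′ on the strand of the gene, with the CRE or core (TGACG, or CGTCA on the other strand) in capitals. They lie at chr5:31138896-31139145 (Ucn, minus strand), chr13:99900684-99900933 (Cartpt, minus strand), chr16:23890845-23891094 (Sst, minus strand) and chr6:7554811-7555060 (Tac1, plus strand). The Cartpt and Sst windows precede a start inside the longest RefSeq span of the gene, which is chr13:99898483-99910179 for Cartpt and chr16:23889573-23891342 for Sst.
Ucn promoter: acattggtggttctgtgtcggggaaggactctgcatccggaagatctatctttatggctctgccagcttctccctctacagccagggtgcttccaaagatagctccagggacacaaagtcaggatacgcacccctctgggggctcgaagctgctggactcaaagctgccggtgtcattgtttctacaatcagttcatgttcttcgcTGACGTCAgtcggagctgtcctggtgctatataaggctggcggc
Cartpt promoter: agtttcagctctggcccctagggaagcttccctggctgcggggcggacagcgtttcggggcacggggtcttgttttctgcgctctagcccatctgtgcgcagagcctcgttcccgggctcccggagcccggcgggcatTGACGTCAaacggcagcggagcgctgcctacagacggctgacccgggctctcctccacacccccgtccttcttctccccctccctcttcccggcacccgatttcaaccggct
Sst promoter: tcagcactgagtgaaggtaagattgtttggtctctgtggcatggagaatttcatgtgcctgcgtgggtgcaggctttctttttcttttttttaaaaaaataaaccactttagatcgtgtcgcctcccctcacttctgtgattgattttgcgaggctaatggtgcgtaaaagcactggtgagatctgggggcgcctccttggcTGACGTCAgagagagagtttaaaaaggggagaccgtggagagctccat
Tac1 promoter: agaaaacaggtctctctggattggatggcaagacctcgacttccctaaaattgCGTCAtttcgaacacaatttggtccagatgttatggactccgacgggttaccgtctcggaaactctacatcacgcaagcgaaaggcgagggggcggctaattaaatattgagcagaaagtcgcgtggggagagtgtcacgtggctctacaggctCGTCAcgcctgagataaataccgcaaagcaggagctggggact

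Library totals lay between 51003699 and 70533326 counts. All 10 genes were listed and passed the filter on low counts, as did 19300 genes in all. Some libraries stood apart. The choroid plexus markers Ttr, Kl, Folr1, Clic6 and Kcne2 summed to 2112 TPM (a level normalised for gene length and library depth) in NDST3-treated library 2, against 9.87 to 73.9 TPM in the other 4 libraries. Markers of hypothalamic neurons (Hcrt, Pmch, Avp, Oxt and Agrp) summed to 538 TPM in the 6-OHDA library, against 4.17 to 27.4 TPM elsewhere. Hcrt (214 TPM) and Pmch (286 TPM) made up most of this sum. Avp and Oxt were also highest in that library, at 27.2 and 10.9 TPM. Agrp, which did not pass the filter, was lowest there, at 0.106 TPM against 0.193 to 0.435 TPM. Markers of serotonergic neurons (Tph2, Slc6a4 and Fev) summed to 1.02 TPM in the 6-OHDA library, against 96.2 to 274 TPM elsewhere. Markers of cortical and hippocampal excitatory neurons (5 genes) summed to 20.4 TPM in the 6-OHDA library, against 2.87 to 6.74 TPM elsewhere. Slc17a7, a vesicular glutamate transporter of such neurons, had 25.5 and 10.1 TPM in sham, 103 TPM in 6-OHDA, and 3.48 and 88.7 TPM in NDST3-treated libraries. Dopaminergic markers (8 genes, among them Th, Slc6a3 and Aldh1a1) summed to 894 and 859 TPM in sham. Their sum was 132 TPM in 6-OHDA, and 257 and 244 TPM in NDST3-treated libraries. Aldh1a1 alone made up most of these lower sums, at 112 TPM in 6-OHDA, and 137 and 158 TPM in NDST3-treated libraries. Th had 158 and 185 TPM in sham, 2.57 TPM in 6-OHDA, and 15.1 and 10.8 TPM in NDST3-treated libraries. Slc6a3 had 161 and 171, 0.084, and 4.32 and 0.812 TPM in the same order. Dopaminergic neurons were therefore represented in the sampled sham tissue.

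**Figure D1:**
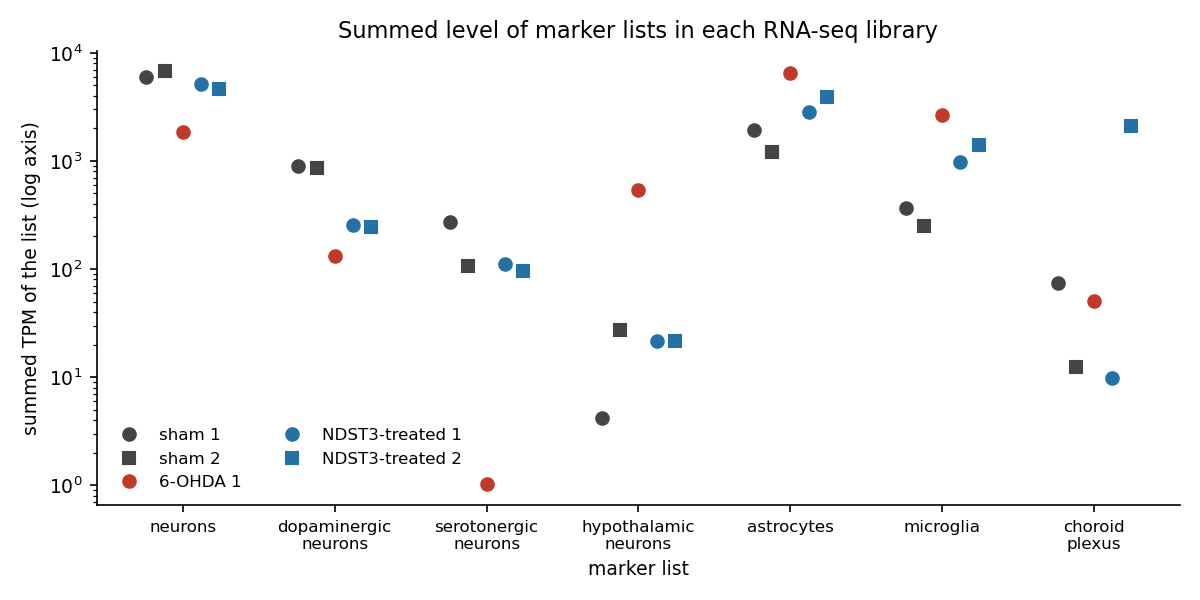
Summed TPM (log axis) of 7 marker lists in each RNA-seq library (black, sham; red, 6-OHDA; blue, NDST3-treated; circles, library 1; squares, library 2). The 6-OHDA library is lowest for neuron, dopaminergic and serotonergic markers and highest for hypothalamic, astrocyte and microglia markers, and NDST3-treated library 2 is highest for choroid plexus.

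Together the 10 peptides summed to 1038 and 1019 TPM in the sham libraries, 356 TPM in the 6-OHDA library, and 911 and 733 TPM in the NDST3-treated libraries. The 6-OHDA library lay below every other library. In sham, Cartpt and Sst were the most abundant members, at 269 ± 92.3 and 283 ± 58.9 TPM (SD, n = 2), and their ranges overlapped. Penk and Cck followed at 141 ± 9.94 and 155 ± 25.1 TPM and also overlapped each other. Tac1 (67.7 ± 23.3 TPM), Ucn (48.8 ± 27.7 TPM) and Npy (33.2 ± 9.18 TPM) came next, with Ucn overlapping both neighbours. Nts (16.8 ± 1.02 TPM), Vip (8.06 ± 1.31 TPM) and Pdyn (6.20 ± 0.27 TPM) were the lowest, and these 3 did not overlap.

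**Figure D2:**
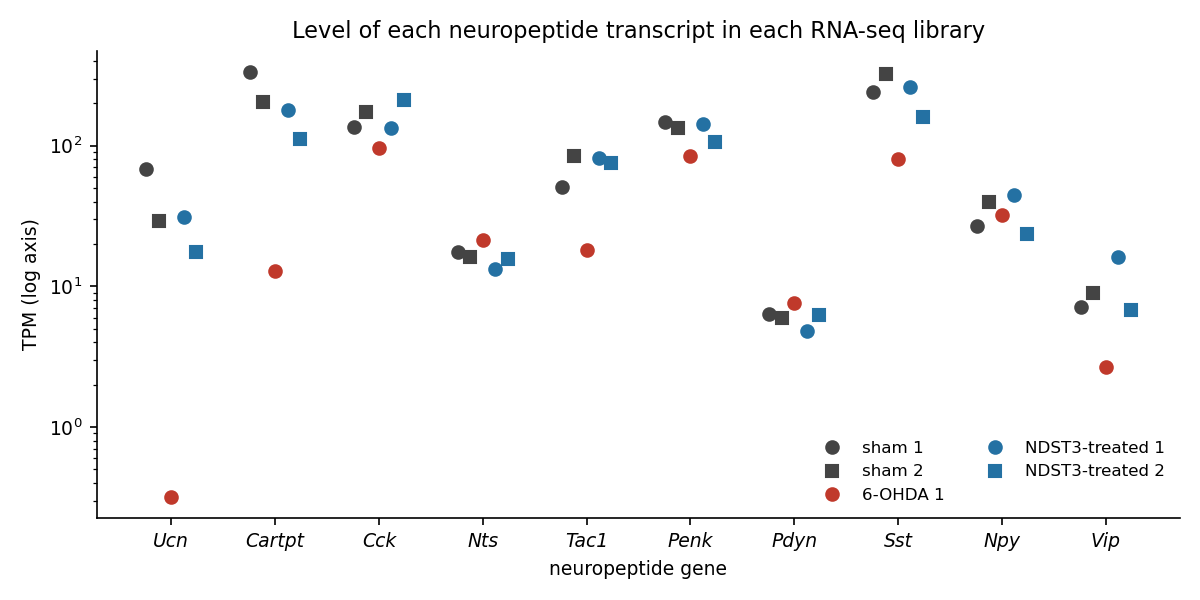
TPM (log axis) of each neuropeptide gene in each RNA-seq library (black, sham; red, 6-OHDA; blue, NDST3-treated; circles, library 1; squares, library 2). The 6-OHDA library is the lowest for Ucn, Cartpt, Cck, Tac1, Penk, Sst and Vip, the highest for Nts and Pdyn, and in the middle for Npy.

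Ucn, a peptide of the corticotropin-releasing factor family, spanned the widest range of the 10. Its TPM was 68.4 and 29.2 in sham, 0.32 in 6-OHDA, and 31.2 and 17.5 in NDST3-treated libraries. The 6-OHDA value rested on 6 counts (95% Poisson interval 2.20 to 13.1, counting error only), against 280 to 928 counts in the other libraries. The log2 fold change in the shared edgeR fit was -6.76 (SE 0.99) for 6-OHDA against sham, 5.81 (SE 0.98) for NDST3-treated against 6-OHDA, and -0.95 (SE 0.50) for NDST3-treated against sham. The sham libraries differed from each other by 2.34-fold, and without sham library 1 the values for 6-OHDA and for NDST3-treated against sham were -6.03 and -0.22. The 6-OHDA library stood far below both other groups, which overlapped each other.

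Cartpt, whose CART peptide acts on feeding and reward circuits, had 334 and 204 TPM in sham, 12.8 TPM in 6-OHDA, and 180 and 111 TPM in NDST3-treated libraries. The 3 groups did not overlap, with sham highest. Its log2 fold changes were -4.19 (SE 0.52) for 6-OHDA against sham, 3.35 (SE 0.50) for NDST3-treated against 6-OHDA and -0.84 (SE 0.34) for NDST3-treated against sham. The last of these was -0.44 without sham library 1, -0.55 without NDST3-treated library 2 and -1.26 without NDST3-treated library 1. In percent of the sham mean TPM, Ucn was at 0.656% in 6-OHDA and 49.9% in NDST3-treated libraries, and Cartpt at 4.76% and 54.1%.

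The likeness of patterns was measured as the root mean square difference of centred log2(TPM + 1) over the 5 libraries, among genes outside the 10 with a mean of at least 1 TPM. Of these, the genes most like Ucn were Tph2 (0.377) and Slc6a4 (0.398), the enzyme of serotonin synthesis and the serotonin transporter. Those most like Cartpt were C1ql4 (0.339) and Glra1 (0.410). Ucn and Cartpt differed from each other by 0.377 on this measure. Tph2 had 153, 61.8, 0.758, 63.3 and 54.7 TPM in the order sham 1, sham 2, 6-OHDA, NDST3-treated 1 and NDST3-treated 2. The part of serotonergic neurons, whose markers moved with Ucn and Cartpt, was not tested, and in bulk tissue fewer cells of a type and less RNA per cell cannot be told apart.

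Tac1 encodes substance P and neurokinin A. It had 51.2 and 84.2 TPM in sham, 18.02 TPM in 6-OHDA, and 81.1 and 74.8 TPM in NDST3-treated libraries. The 6-OHDA library lay below both other groups, and the NDST3-treated values fell within the sham range. The log2 fold changes were -1.71 (SE 0.34) for 6-OHDA against sham, 1.95 (SE 0.34) for NDST3-treated against 6-OHDA and 0.24 (SE 0.25) for NDST3-treated against sham, which was -0.07 without sham library 1 and 0.64 without sham library 2. Outside the 10, the genes most like it were Etnppl (0.107) and Slc17a6 (0.115), a vesicular glutamate transporter that had 48.9 TPM in 6-OHDA and 151 to 226 TPM elsewhere.

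The opioid precursors went different ways. Penk, the precursor of enkephalins, had 148 and 134 TPM in sham, 84.7 TPM in 6-OHDA, and 143 and 107 TPM in NDST3-treated libraries. Pdyn, the precursor of dynorphins, had 6.39 and 6.01 TPM in sham, 7.67 TPM in 6-OHDA, and 4.82 and 6.31 TPM in NDST3-treated libraries. The 6-OHDA library was therefore the lowest for Penk and the highest for Pdyn. The summed markers of hypothalamic neurons, mostly Hcrt and Pmch, were also highest in this library, at 538 TPM, and the part of these cells was not tested. Penk had log2 fold changes of -0.54 (SE 0.22) for 6-OHDA against sham and 0.41 (SE 0.22) for NDST3-treated against 6-OHDA, and Pdyn of 0.50 (SE 0.23) and -0.62 (SE 0.23). Without NDST3-treated library 1, the second value of Penk was 0.15. Markers of striatal projection neurons, a major source of both peptides, summed to 51.0 TPM in 6-OHDA and 63.9 to 81.5 TPM in the other libraries. Ppp1r1b alone had 36.9 of the 51.0 TPM. By log2 fold change against sham, 4 of the 5 markers were lower in 6-OHDA and 1, Adora2a, was higher. None of the 5 passed an adjusted p under 0.05 in edgeR. Outside the 10, patterns closest to Penk were those of Zfp976 (0.0346) and Smco3 (0.0368), and to Pdyn those of Cahm (0.0334) and Shroom4 (0.0381).

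Nts, whose peptide modulates dopamine signalling, followed the order seen for Pdyn. It had 17.5 and 16.1 TPM in sham, 21.2 TPM in 6-OHDA, and 13.3 and 15.5 TPM in NDST3-treated libraries, and the 3 groups did not overlap. The log2 fold changes were 0.53 (SE 0.19) for 6-OHDA against sham and -0.71 (SE 0.19) for NDST3-treated against 6-OHDA. The part of hypothalamic neurons, whose summed markers were highest in the 6-OHDA library, was not tested. Nts and Pdyn were the most similar pair among the 10 genes, at 0.0606 on the likeness measure. The measure is not scaled by range, and Nts and Pdyn spanned the smallest log2 ranges of the 10 (0.639 and 0.574). Genes that vary little lie close on it. Outside the 10, Atp8b1 (0.0287) and Podxl (0.0303) were closest to Nts.

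Cck, whose peptide acts on receptors in gut and brain, had 137 and 172 TPM in sham, 96.6 TPM in 6-OHDA, and 134 and 211 TPM in NDST3-treated libraries. Its log2 fold changes were -0.45 (SE 0.31) for 6-OHDA against sham and 0.66 (SE 0.31) for NDST3-treated against 6-OHDA, and the latter was 0.27 without NDST3-treated library 2. The 6-OHDA library was the lowest, by less than 2-fold against sham. The part of cortical and hippocampal excitatory neurons, which also express Cck and whose markers were highest in the 6-OHDA library, was not tested. Cck overlaps the RefSeq gene Gm38661 on GRCm38, and the sources used here do not state whether counting used the strand, so reads of the pair may be split. Outside the 10, the genes closest to Cck were Hspa4l (0.0419) and Nell2 (0.0432).

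Sst, Npy and Vip mark classes of inhibitory neurons in the forebrain. Sst, the somatostatin gene, had 241 and 324 TPM in sham, 80.4 TPM in 6-OHDA, and 263 and 160 TPM in NDST3-treated libraries. Its log2 fold changes were -1.64 (SE 0.39) for 6-OHDA against sham and 1.25 (SE 0.38) for NDST3-treated against 6-OHDA, and the latter was 0.81 without NDST3-treated library 1. Vip, the gene of vasoactive intestinal peptide, had 7.13 and 8.99 TPM in sham, 2.68 TPM in 6-OHDA, and 16.3 and 6.76 TPM in NDST3-treated libraries. For both genes the 6-OHDA library was the lowest, and the sham and NDST3-treated libraries overlapped. Its log2 fold changes were -1.39 (SE 0.61) and 1.95 (SE 0.62) in the same comparisons, and the second was 1.16 without NDST3-treated library 1. Npy, a peptide that stimulates feeding, had 26.7 and 39.7 TPM in sham, 31.9 TPM in 6-OHDA, and 44.5 and 23.4 TPM in NDST3-treated libraries. The 3 groups overlapped throughout, with log2 fold changes of 0.14 (SE 0.47), -0.06 (SE 0.47) and 0.08 (SE 0.38) in the 3 comparisons, each of which changed sign under at least 1 alternative. Outside the 10, patterns closest to Sst were those of Ksr2 (0.0479) and B230312C02Rik (0.0491), to Vip those of Sox14 (0.247) and Meis2 (0.256), and to Npy those of Fst (0.0975) and Adamtsl5 (0.104).

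**Figure D3:**
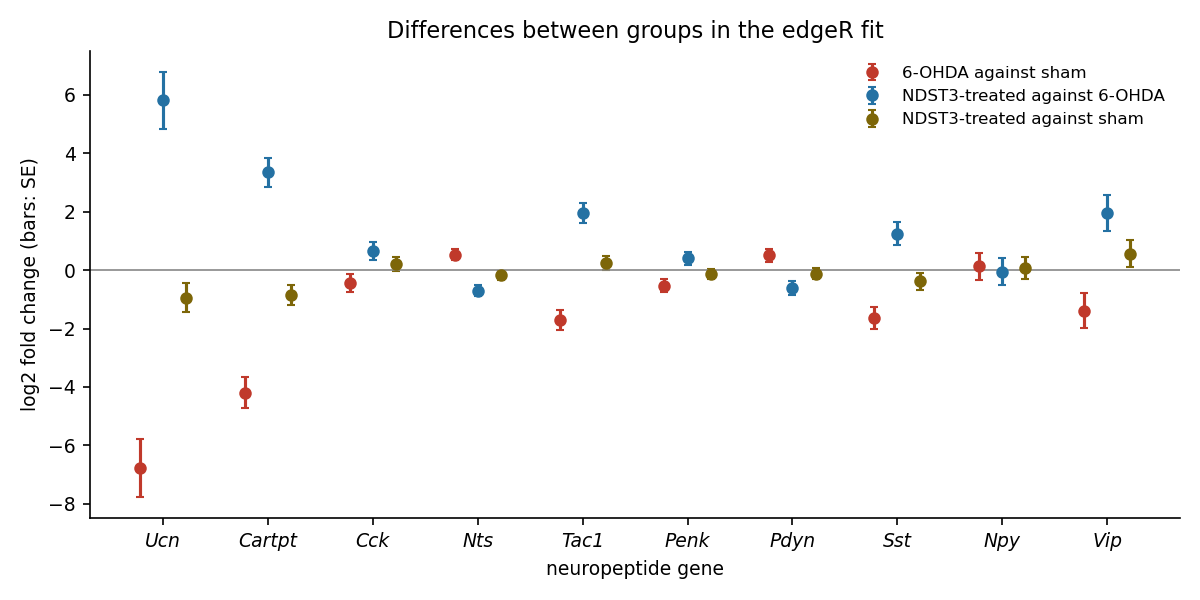
Log2 fold change of each neuropeptide gene in the shared edgeR fit (points) with its standard error (bars), for 6-OHDA against sham (red), NDST3-treated against 6-OHDA (blue) and NDST3-treated against sham (olive). Ucn and Cartpt lie farthest from 0 in the first and second comparisons, both of which use the single 6-OHDA library.

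Counted by libraries that did not overlap, 7 of the 10 genes were lower in 6-OHDA than in both sham libraries, beside 44.3% of the 19300 genes tested, and 2 were higher, beside 45.3%. In NDST3-treated libraries the same 7 genes were above the 6-OHDA library (42.4% of all genes) and the same 2 were below it (43.2%). These comparisons share the 6-OHDA library, and the genes were chosen with its values known. Against sham, 2 genes (Cartpt and Nts) were lower in NDST3-treated libraries (22.4% of all genes) and 0 were higher (26.5%). The remaining 8 genes overlapped between sham and NDST3-treated libraries.

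Pan-neuronal markers were lowest in the 6-OHDA library, as were 7 of the 10 peptides. The 8 markers (Snap25, Syt1, Rbfox3, Stmn2, Nefl, Nefm, Eno2 and Thy1) summed to 5993 and 6740 TPM in sham, 1872 TPM in 6-OHDA, and 5132 and 4594 TPM in NDST3-treated libraries. Markers of GABAergic neurons (Gad1, Gad2 and Slc32a1) summed to 745 and 777, 209, and 675 and 452 TPM in the same order. Astrocyte markers summed to 6456 TPM in 6-OHDA against 1223 to 3911 TPM elsewhere, and microglia markers to 2675 TPM against 247 to 1393 TPM. Gfap alone had 4835 of the 6456 TPM. By log2 fold change all 5 astrocyte markers were higher in 6-OHDA than in sham, but Aldh1l1 only at 74.2 TPM against 72.1 and 66.3 TPM. The part of these marker differences in the level of each peptide was not tested.

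Per 1000 TPM of the 8 neuron markers, a scale added after the data were seen, the 10 peptides summed to 173 and 151 TPM in sham, 190 TPM in 6-OHDA, and 178 and 159 TPM in NDST3-treated libraries. On this scale the 6-OHDA library was the highest of the 5, whereas it was the lowest in TPM. The single markers fell unevenly, to between 14.2% (Nefm) and 45.1% (Syt1) of their sham mean TPM in 6-OHDA. The values and the order of the libraries may thus depend on the markers summed, and other sets were not tested. Only Ucn and Cartpt of the 10 were below 50% of their sham mean on this scale in 6-OHDA, at 2.17% and 15.9% of it. Tac1, Sst and Vip, which were low in TPM, stood at 91.6%, 97.2% and 113% of the sham mean. Cck and Penk stood at 213% and 203%, and Npy, Pdyn and Nts at 330%, 418% and 427%. Summed markers of hypothalamic, cortical and hippocampal neurons were highest in this library, and the part of these cells in these values was not tested. In NDST3-treated libraries, Ucn was at 77.2% and 48.3% and Cartpt at 81.5% and 56.4% of the sham mean.

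**Figure D4:**
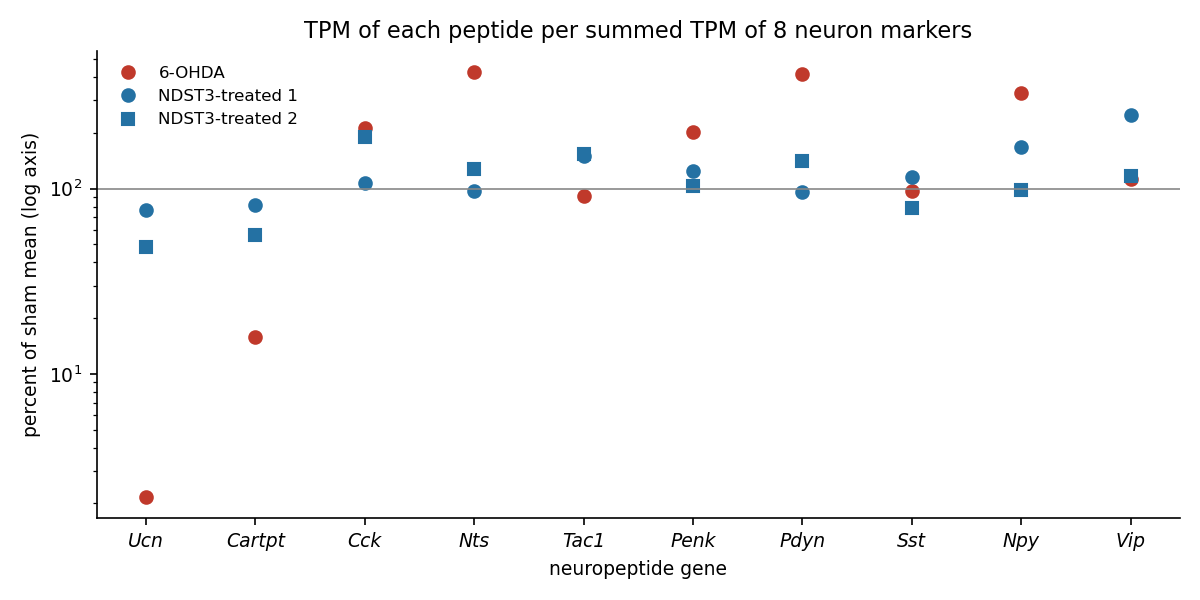
TPM of each neuropeptide gene divided by the summed TPM of 8 neuron markers, in percent of the sham mean (log axis, grey line at 100), in the 6-OHDA library (red) and in NDST3-treated libraries 1 (blue circles) and 2 (blue squares). Ucn and Cartpt in the 6-OHDA library lie at 2.17% and 15.9%, and the other 8 genes in that library between 91.6% and 427%.

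The machinery that makes and releases neuropeptides was tested gene by gene, in a list of 16 genes that were all measured. In 6-OHDA against sham, 11 of the 16 fell, 0 rose and 5 did not reach an adjusted p under 0.05 (quasi-likelihood test of edgeR, adjusted by Benjamini-Hochberg over 19300 genes), while 17.1% of all genes fell and 18.8% rose. The median log2 fold change of the list was -1.04, against -0.00245 over all genes and -1.50 over the 8 neuron markers. Cadps2, a priming factor of dense-core vesicles, fell by 2.32 on the log2 scale (SE 0.13, adjusted p = 0.00823), from 27.5 and 27.1 TPM in sham to 4.84 TPM. Chga, which encodes the vesicle protein chromogranin A, fell by 2.01 (SE 0.24, adjusted p = 0.00847), from 407 and 424 TPM to 90.3 TPM. Ptprn2, a membrane protein of these vesicles, fell by 1.57 (SE 0.14, adjusted p = 0.00823). The carboxypeptidase gene Cpe, by contrast, had a log2 fold change of 0.62 (adjusted p = 0.0528), and the glutaminyl cyclase gene Qpct one of 0.05.

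In NDST3-treated libraries against 6-OHDA, 9 of the 16 rose and 0 fell, beside 9.06% and 6.59% of all genes. The median log2 fold change was 0.71, against 1.18 over the 8 neuron markers. Chga rose by 1.53 (SE 0.23, adjusted p = 0.0337) to 334 and 247 TPM. The convertase gene Pcsk2 rose by 1.40 (SE 0.26, adjusted p = 0.0384), from 41.3 TPM to 103 and 140 TPM, and Ptprn2 by 1.39 (SE 0.14, adjusted p = 0.032).

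Of the 24 receptors for the 10 peptides, 21 were listed and tested (Tacr2, Npy4r and Npy6r were not). In 6-OHDA against sham, 11 fell, 1 rose and 9 did not pass, while 17.1% of all genes fell and 18.8% rose. The median log2 fold change was -1.59, against -1.50 over the 8 neuron markers. Tacr3, a tachykinin receptor, fell by 2.85 (SE 0.31, adjusted p = 0.00823), from 13.9 and 19.7 TPM to 2.03 TPM. Oprm1, the µ-opioid receptor, fell by 2.63 (SE 0.40, adjusted p = 0.0111), from 3.99 and 5.69 TPM to 0.678 TPM (36 counts). Ntsr1, a neurotensin receptor, fell by 2.59 (SE 0.45, adjusted p = 0.0144). Vipr1, a receptor for vasoactive intestinal peptide, rose by 1.81 (SE 0.44, adjusted p = 0.0324), although only from 0.529 TPM in each sham library to 1.63 TPM. Both urocortin receptors were among those that fell, in which Crhr1 fell by 2.06 (adjusted p = 0.00847) and Crhr2 fell by 1.59 (adjusted p = 0.0364).

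In NDST3-treated libraries against 6-OHDA, 6 of the 21 receptors rose and 0 fell, beside 9.06% and 6.59% of all genes. The median log2 fold change was 1.02, against 1.18 over the 8 neuron markers. Tacr3 rose by 2.07 (SE 0.29, adjusted p = 0.0333), Oprk1, the dynorphin receptor, by 2.06 (SE 0.18, adjusted p = 0.032) and Oprm1 by 2.04 (SE 0.39, adjusted p = 0.0398). Ntsr1 had 11.6 and 12.01 TPM in sham, 1.71 TPM in 6-OHDA, and 1.37 and 2.74 TPM in NDST3-treated libraries. Its log2 fold change was 0.11 (adjusted p = 0.867) against 6-OHDA and -2.48 (adjusted p = 0.152) against sham. Its NDST3-treated values lay on either side of the 6-OHDA value and below both sham values. Ntsr2, the other neurotensin receptor, lay between 309 and 350 TPM in all 5 libraries.

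Family partners and other brain peptides behaved less uniformly. Of 16 genes, 10 were listed and tested. In 6-OHDA against sham, 2 rose, 4 fell and 4 did not pass, with a median log2 fold change of 0.07. Over all genes, 18.8% rose and 17.1% fell. Gal, the galanin gene, rose by 3.17 (SE 0.39, adjusted p = 0.00869), from 11.4 and 5.91 TPM to 68.1 TPM, and Tac2, which encodes neurokinin B, by 2.29 (SE 0.59, adjusted p = 0.0385), from 6.31 and 3.56 TPM to 20.9 TPM. Both are also abundant in the hypothalamus. The summed markers of its neurons, mostly Hcrt and Pmch, were highest in the same library, and the part of these cells in the rise was not tested. Crhbp, a binding protein for urocortin and corticotropin-releasing hormone, fell by 2.67 (SE 0.43, adjusted p = 0.0123), Grp, the gastrin-releasing peptide gene, fell by 2.13 (SE 0.40, adjusted p = 0.0172) and Pnoc, the nociceptin precursor, fell by 1.35 (SE 0.25, adjusted p = 0.0157). The fourth was Adcyap1, named after its values were seen, which fell by 0.80 (adjusted p = 0.0123). In NDST3-treated libraries against 6-OHDA, 0 of the 10 passed, with 27.9 and 23.3 TPM for Gal. Over all genes, 9.06% rose and 6.59% fell in that comparison.

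**Figure D5:**
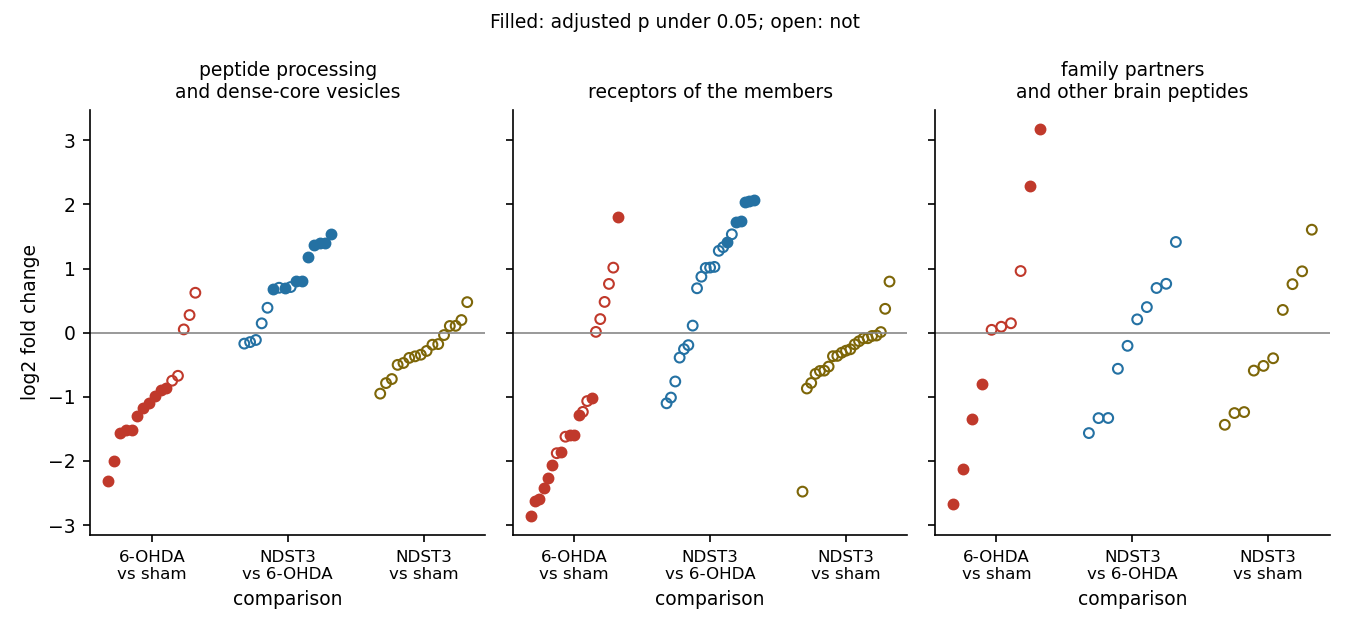
Log2 fold change of each tested gene of 3 pathway lists in 3 comparisons (red, 6-OHDA against sham; blue, NDST3-treated against 6-OHDA; olive, NDST3-treated against sham), sorted within each column, with filled points at an adjusted p under 0.05. In processing and receptor genes, filled points lie below 0 after the lesion, except Vipr1, and above 0 for NDST3-treated against 6-OHDA.

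Over the 3 lists, 29 of the 47 genes tested were called in 6-OHDA against sham and 15 in NDST3-treated against 6-OHDA. NDST3-treated against sham gave 0 calls by edgeR, 20 genes at an unadjusted p under 0.05, 12 by DESeq2 and 0 by limma, and 0.0% of all genes passed. At the threshold of the study's own methods, a fold of at least 2 with an unadjusted p under 0.05, 3 genes of the lists were higher and 25 lower in 6-OHDA than in sham (14.4% and 10.1% of all genes). In NDST3-treated against 6-OHDA, 17 were higher and 2 lower (7.3% and 8.37%), and against sham 1 was higher and 4 lower (4.78% and 1.08%). The single 6-OHDA library was assumed to vary like the other groups, and without sham library 1 or sham library 2 both of the first counts were 0. The second was also 0 without NDST3-treated library 1 and when only the libraries of the 2 groups were fitted.

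In H3K27ac CUT&RUN, which maps a histone mark of active promoters and enhancers, 1 of the 10 genes had a region among the 11424 listed. It was a region of Cartpt on chromosome 13, with a listed distance of 60 bases to the transcription start. The authors' value per group, which pools 2 libraries, was 2.70 in sham, 10.65 in 6-OHDA and 19.88 in NDST3-treated tissue. After adding 1, the log2 ratio was 1.65 for 6-OHDA against sham, 0.84 for NDST3-treated against 6-OHDA and 2.497 for NDST3-treated against sham. At 2-fold, it was higher in 6-OHDA and in NDST3-treated tissue than in sham. The sham value was low, at the 2.5th percentile of sham signals over regions, and the ratios against sham rest on it. With 0.1 added in place of 1, the log2 ratios were 1.94, 0.89 and 2.84 in the same order. Of the 11326 regions with a signal of at least 1 in some group, 7.77% were higher and 4.52% lower in 6-OHDA than in sham. In NDST3-treated tissue against sham, 25.7% were higher and 0.636% lower, and against 6-OHDA 11.1% and 0.0%. The order of the groups at the Cartpt region differed from that of Cartpt RNA, which was lowest in 6-OHDA. The NDST3-treated value was below that of 6-OHDA in 0 of the 11424 regions, so a value at or above it is not particular to Cartpt, and the reason was not tested. With 1 column per group there was no test, and the normalisation is not stated.

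In ATAC-seq, which maps open chromatin, only Penk of the 10 genes had regions, 3 of 3582. At a listed distance of 143 bases to the start, the signal was 48.13 in sham, 42.0 in 6-OHDA and 38.86 in NDST3-treated tissue. At -227 bases it was 33.0, 35.0 and 26.0, and at -370 bases 18.98, 21.25 and 19.73. None of the 3 regions differed by 2-fold in any comparison. Of the 3537 regions with values in every group and a signal of at least 1 in some group, 4.58% were higher and 5.06% lower for 6-OHDA against sham, 4.41% and 3.53% for NDST3-treated against 6-OHDA, and 8.37% and 5.91% for NDST3-treated against sham. The listed positions of both tables match GRCm38 gene ends within 200 bases for only 3.11% (CUT&RUN) and 8.27% (ATAC-seq) of regions, although the methods name mm10, so no coordinates or sequence of these regions are given.

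In scRNA-seq, all 10 genes were listed for 9 clusters of the 6-OHDA and NDST3-treated libraries (1 library each), but 128 of the 180 mean values were 0. The values fit a mean natural log of normalised counts. By the study's methods, cells above an upper limit of detected genes were removed, and no doublet caller is named in the sources used here. Only 2 exceeded 0.1, both in cluster 2 of the NDST3-treated library, where Penk was at 0.139 and Npy at 0.121, against 0.0835 and 0.0612 in the 6-OHDA library. Pdyn in the same cluster was at 0.0938 against 0.0135. Ucn, Tac1, Sst and Vip did not exceed 0.001 in any cluster. At means this low, none of the 10 genes could differ by 1 on the log2 scale between the libraries. The largest difference was 0.116, for Pdyn in cluster 2. Over all 26648 genes, 0.0638% were higher and 0.03% lower by 1 in at least 1 cluster. The median of the 8 neuron markers was at most 0.0506 in any cluster, and at most 2 of the 8 exceeded 0.1.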

How the data were processed

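Mouse brain was measured by RNA-seq (5 libraries), CUT&RUN, ATAC-seq and scRNA-seq, in 17 samples. Groups came from the sample titles. For RNA-seq, the authors used Trimmomatic for trimming, HISAT2 for alignment to mm10 and StringTie for quantification, and deposited a read count, a TPM and an FPKM value per gene (FPKM was not used). Genes with 0 counts in any library are not listed. The authors also deposited a tag signal per region and group for CUT&RUN and ATAC-seq, with a normalisation that is not stated, and scRNA-seq means per cluster whose values fit a natural log of normalised counts.

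Differences in counts were tested in edgeR 4.0.16 under R 4.3.3 (TMM factors, default filter, quasi-likelihood test, Benjamini-Hochberg adjustment over all 19300 genes), with all 5 libraries in 1 fit and 2 residual degrees of freedom. Standard errors were derived from the log2 fold change and F. The fit was tested on simulated data. DESeq2 1.42.0, limma 3.58.1 on log2(TPM + 1) and log2(TPM + 0.1), size factors, no filter, only 2 groups, a replicate block and left-out replicates were alternatives. Signal ratios used a pseudocount of 1 (0.1 as an alternative), over regions with a value in every group and a signal of at least 1 in some group. Calculations outside R used Python 3.11.15 with pandas 2.3.3 and scipy 1.17.1.

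The peptide genes, the pathway lists and the marker lists were chosen with earlier results of these data known. Named besides them were the 3 called genes of each list with the largest change in each direction and a mean CPM of at least 1, the receptors of a peptide, and the 2 genes most like each peptide.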

Additional observations from a re-analysis of the deposited data

How the results depend on the processing

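The counts of pathway genes called were 29, 15 and 0 for 6-OHDA against sham, NDST3-treated against 6-OHDA and NDST3-treated against sham. DESeq2 gave 24 in the second and 12 in the third comparison. With only the libraries of the 2 groups, the second count was 0. With each replicate left out in turn, the counts ranged from 0 to 33, from 0 to 19 and from 0 to 1. The replicate numbers of the titles do not mark a shared animal or day, and deviations of same-numbered sham and NDST3-treated libraries correlated with r = -0.32 across genes. With the replicate block the counts were 15, 0 and 0. The crossed pairing as a block, chosen after seeing the data, gave 34, 23 and 8. Other alternatives stayed within 1.5 times the counts, and no named pathway gene reversed.

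Among the peptides, 333 of 360 values under the alternatives moved by less than the SD between replicates. A gene that varies widely between replicates meets this rule easily, so it does not measure whether a direction is stable. All 12 values of Npy for 6-OHDA against sham met it. Npy changed sign under 3 and 4 alternatives in the comparisons with 6-OHDA, and the other 9 peptides under none there. In NDST3-treated against sham there were 9 sign changes, in Cck, Tac1, Penk, Pdyn, Npy and Vip. Log2(TPM + 1) gave Ucn -5.12 for 6-OHDA against sham and 4.21 for NDST3-treated against 6-OHDA. On log2(TPM + 0.1), the median of all genes shifted by -0.18 for 6-OHDA against sham and by 0.14 for NDST3-treated against 6-OHDA. Ucn in the 6-OHDA library rested on 6 counts, and every other peptide value on at least 101.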
